A study of Homo sapiens with 6 samples.

Results

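The respiratory chain subunits described here are the proteins of mitochondrial complexes I to V whose genes lie in the nucleus. Members were taken by symbol: the NDUFA, NDUFB, NDUFC, NDUFS and NDUFV genes of complex I, SDHA to SDHD of complex II, the UQCR genes of complex III, the COX4I, COX5, COX6, COX7 and COX8 genes of complex IV, and the ATP5F1, ATP5M and ATP5P genes of complex V, all protein-coding. This gave 87 of the 23459 genes in the table, 38 in complex I, 4 in II, 9 in III, 17 in IV and 19 in V. Of these, 81 passed the filter on low counts and were tested.

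The cells were Raji, an established human line of Burkitt's lymphoma with a germinal centre origin, and their RNA was sequenced as poly(A)-selected libraries. IRF4-overexpressing cells carried a lentivirus with human IRF4 cDNA, IRF4 being a transcription factor that drives late B cell differentiation, and control cells carried the empty vector. Cells of both groups were exposed to virus for 5 days and then held for 7 days in 3 µg/ml puromycin, so that both are selected cultures rather than untouched Raji cells. There were 3 libraries in each group, and since nothing in the labels says that they came from separate infections or cultures, p-values measure the spread between libraries, which may be technical.

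The respiratory chain passes electrons from NADH (complex I) and succinate (complex II) through coenzyme Q, complex III and cytochrome c to oxygen at complex IV, and the proton gradient built on the way drives ATP synthesis at complex V. Each complex other than II combines nuclear subunits, made in the cytosol and imported, with a few core subunits encoded by mitochondrial DNA. Most nuclear subunit genes are active in every cell, with tissue forms for some complex IV subunits, and their promoters often carry sites for NRF1, for ETS factors such as GABP, and for YY1.

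The libraries held between 27681979 and 46210702 counts. IRF4 stood at 150.0, 120.5 and 125 CPM in the 3 IRF4-overexpressing libraries, against 1.02, 1.38 and 1.37 CPM in the control libraries (log2 fold change 6.72 (SE 0.18), adjusted p = 3.79e-05, edgeR quasi-likelihood test with Benjamini-Hochberg adjustment over 12079 genes, as for every adjusted p below unless another tool is named). CPM are counts relative to library size after TMM scaling, and values of a group follow the order of its replicates 1, 2 and 3 throughout. The 9 detected B cell markers summed to 2457 to 2665 CPM in IRF4-overexpressing libraries and 2441 to 2648 CPM in control libraries, and no other marker list (T and NK, myeloid, kidney epithelial, mesenchymal, erythroid) exceeded 4.80 CPM in any library. The myeloid list summed to 2.35 to 4.80 CPM in IRF4-overexpressing and 1.18 to 1.30 CPM in control libraries, and the mesenchymal list to 1.67 to 4.16 CPM in IRF4-overexpressing and 0.598 to 1.12 CPM in control libraries. Their part in the results was not tested. Within both groups the libraries also separated along 1 axis that the labels do not name. It was taken from the genes that are not members, as the first principal component of their deviations from the group means, and held 74.2% of that variance. IRF4-overexpressing replicates 2 and 3 and control replicate 1 lay on its first side, and IRF4-overexpressing replicate 1 and control replicates 2 and 3 on its second side. This axis bears on most of the results below.

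No subunit gene was called changed in IRF4-overexpressing cells. At an adjusted p under 0.05, 0 of 81 members were higher, where 2.98% of all tested genes were (360 genes), and 0 were lower, where 0.182% were (22 genes). At an unadjusted p under 0.05 there were 1 higher member (1.23%, beside 11.3% of all tested genes) and 4 lower ones (4.94%, beside 8.18%), and the smallest adjusted p among members was 0.141, for ATP5MC3. limma-voom called 0 in either direction. DESeq2 called 0 higher (4.78% of all genes) and 1 lower, ATP5MC3 (1.45% of all genes). The median log2 fold change over members was 0.10, beside 0.01 over all tested genes, with 57 members above 0 and 24 below. The extremes were -0.54 for ATP5F1D and 0.34 for NDUFB1, both named for these values. The 95% intervals of the fold change lay within 2-fold for 80 of 81 members, all but ATP5F1D, and within 1.5-fold for 54, so that for those members changes beyond these sizes fell outside the interval. In bulk RNA, a lower value can mean fewer cells with the transcript or less transcript per cell, and these cannot be told apart.

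**Figure D1:**
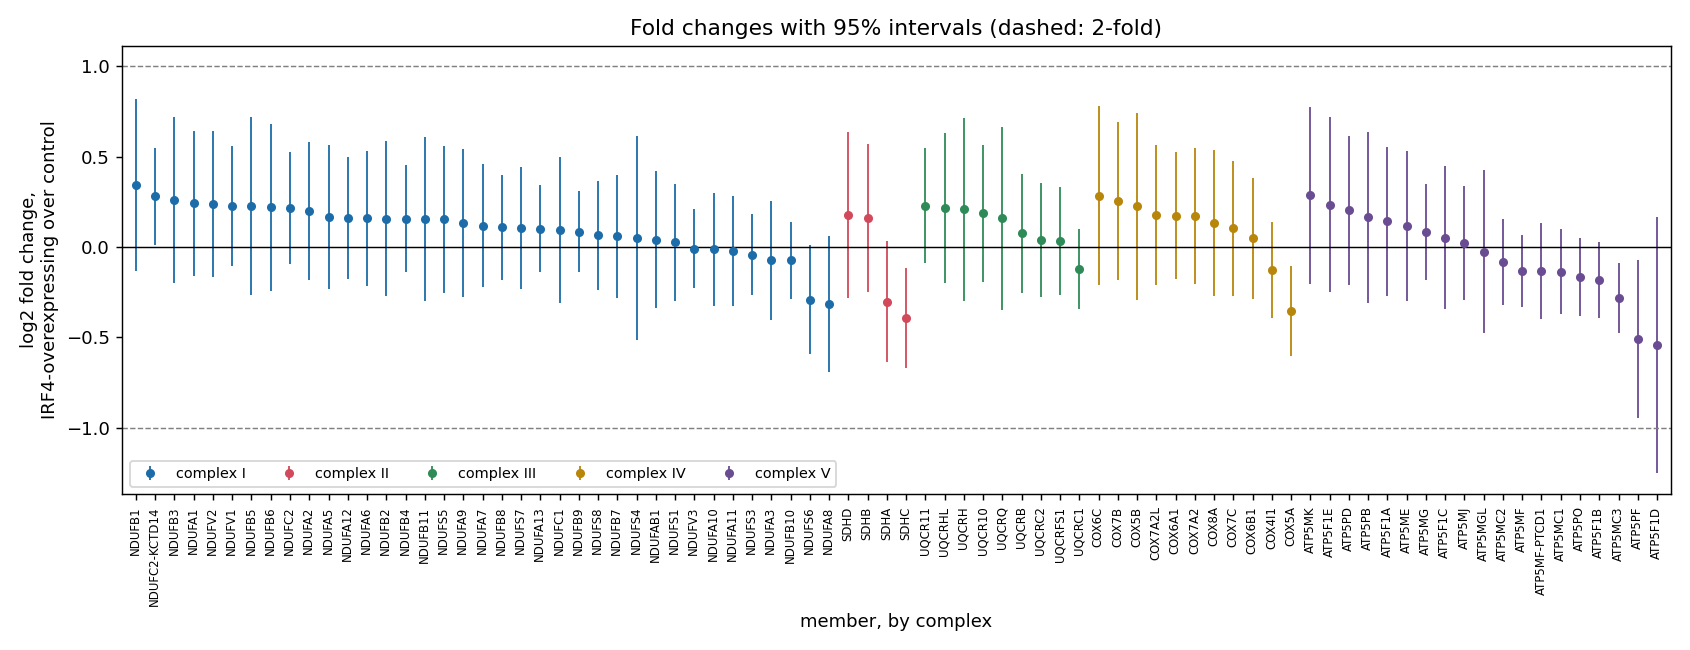
Log2 fold change of the tested members drawn, IRF4-overexpressing over control (vertical axis), with its 95% interval, members ordered by value within each complex (horizontal axis). Complexes I, III and IV sit mostly above 0, with medians of 0.11, 0.16 and 0.17, while complexes II and V straddle it, with medians of -0.07 and -0.03, and no member passed the adjusted threshold.

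The promoters of 3 complex II genes and of ATP5PF are printed as examples, chosen for the patterns of these genes across the libraries. SDHB and SDHD varied together, and SDHA ran the other way. ATP5PF was nearly equal in the controls while it varied in IRF4-overexpressing cells. For SDHC, the remaining complex II gene, no promoter window was found. The windows run from 250 bases before to 50 after the annotated start, are from RefSeq (GRCh38.p14), and are written 5′ to 3′ on the gene's strand. Capitals mark GCGCATGCG (NRF1), CCGGAAG (ETS family) and AAGATGGCG (YY1) on either strand.

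SDHA (chr5:218070-218369, plus strand): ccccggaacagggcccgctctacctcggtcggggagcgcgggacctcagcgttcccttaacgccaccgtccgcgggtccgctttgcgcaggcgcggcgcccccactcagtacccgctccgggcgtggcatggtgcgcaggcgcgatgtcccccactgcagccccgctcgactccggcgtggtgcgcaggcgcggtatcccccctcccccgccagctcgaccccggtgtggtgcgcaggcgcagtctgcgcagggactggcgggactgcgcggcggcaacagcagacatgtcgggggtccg

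SDHB (chr1:17053983-17054282, minus strand): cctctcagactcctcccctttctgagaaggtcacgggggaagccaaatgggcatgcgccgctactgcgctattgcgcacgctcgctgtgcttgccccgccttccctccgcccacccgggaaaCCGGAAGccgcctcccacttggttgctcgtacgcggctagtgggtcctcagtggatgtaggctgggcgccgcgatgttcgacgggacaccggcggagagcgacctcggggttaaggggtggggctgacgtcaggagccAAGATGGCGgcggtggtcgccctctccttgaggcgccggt

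SDHD (chr11:112086623-112086922, plus strand): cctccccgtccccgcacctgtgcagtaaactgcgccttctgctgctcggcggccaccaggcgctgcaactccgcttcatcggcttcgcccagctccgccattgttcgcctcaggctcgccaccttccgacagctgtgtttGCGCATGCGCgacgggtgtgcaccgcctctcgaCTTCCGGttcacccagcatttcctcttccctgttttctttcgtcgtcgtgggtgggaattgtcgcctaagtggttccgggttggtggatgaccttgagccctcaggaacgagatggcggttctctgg

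ATP5PF (chr21:25735005-25735304, minus strand): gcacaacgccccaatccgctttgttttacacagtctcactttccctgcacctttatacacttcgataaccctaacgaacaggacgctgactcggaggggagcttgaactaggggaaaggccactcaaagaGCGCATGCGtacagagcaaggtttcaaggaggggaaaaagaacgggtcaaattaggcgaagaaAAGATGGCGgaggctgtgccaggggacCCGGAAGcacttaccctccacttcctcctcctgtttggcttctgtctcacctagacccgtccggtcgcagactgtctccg

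SDHB held an ETS and a YY1 match, and SDHD an NRF1 match, which reads on both strands at overlapping positions, and an ETS match. ATP5PF held all 3 kinds and SDHA held none of them. Promoter windows were found for 70 of 87 members. Of these, 10 held the NRF1 letters (14.3%, against 2.10% of all 27305 promoters and 4.25% of those of tested genes), 20 the ETS letters (28.6%, against 10.7% and 20.9%) and 8 the YY1 letters (11.4%, against 1.85% and 4.42%). GGGCGG, the SP family motif, was in 42 (60.0%, against 44.6% and 69.4%). At least 1 of the first 3 was in 31 member promoters (44.3%), beside 13.6% of all promoters and 27.2% of those of tested genes. The printed promoters do not stand for the members that share their pattern. Windows were found for 48 of the 58 members higher on the first side of the axis in both groups, and for 5 of the 9 lower there. Among these, the NRF1 letters were in 5 of 48 and 3 of 5. The ETS letters were in 16 of 48 and 1 of 5, and the YY1 letters in 4 of 48 and 0 of 5. A match describes letters only, and its absence says nothing of the factor.

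Levels differed far more between members than between groups. Per kb of gene width, the deposited length of each gene's model, the highest member was COX7A2 of complex IV at 976 CPM per kb (mean of the 6 libraries), followed by ATP5F1B, the catalytic beta subunit of ATP synthase, at 833 CPM per kb. ATP5F1E, its small epsilon subunit, stood at 606, COX7C at 561, NDUFS5 of complex I at 369 and UQCRH, the hinge protein of complex III, at 352 CPM per kb. At the low end were SDHC, a membrane anchor of complex II, at 4.19 and NDUFA3 at 7.21 CPM per kb. Reads of near-identical copies could be shared or lost: 50 of the 87 members have pseudogenes named after them in RefSeq (202 in all), of which 6 are rows of the table. The read-through genes NDUFC2-KCTD14 and ATP5MF-PTCD1 share exons with NDUFC2 and ATP5MF, and UQCRHL is a near-copy of UQCRH, so how reads were split between these is uncertain.

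**Figure D2:**
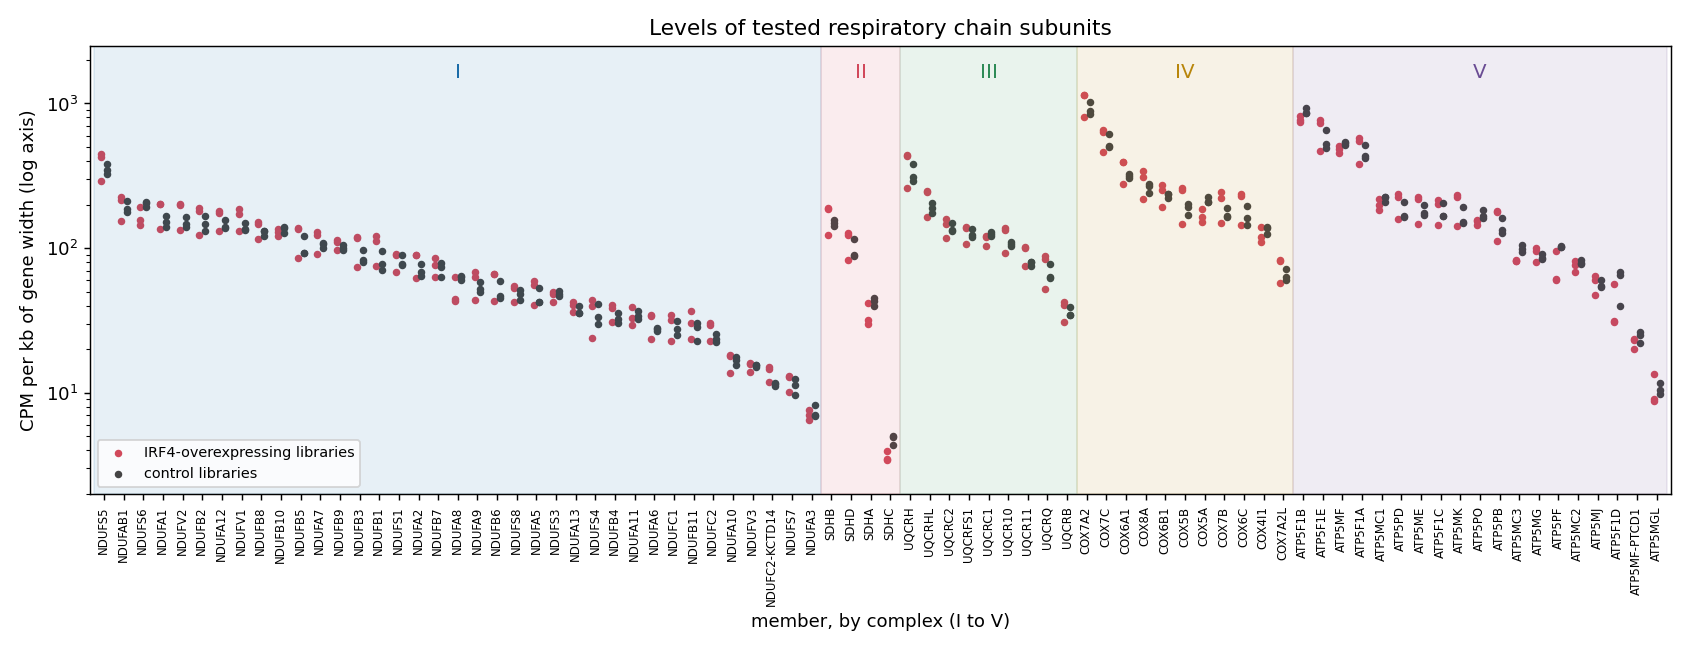
CPM per kb of gene width for the tested members drawn (log axis), by complex and ordered by level, with 3 points for IRF4-overexpressing libraries left of 3 points for control libraries. The range over members, 4.19 CPM per kb for SDHC and 976 CPM per kb for COX7A2, is far wider than the gap between the groups of any member.

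In complex I, the NADH-oxidising entry of the chain, 0 of 38 members were called, with a median log2 fold change of 0.11. The 7 core subunits that are nuclear, which hold the redox centres, had a median of 0.07, and the 31 accessory subunits 0.13. The summed level of the complex was 3131, 4165 and 4037 CPM in the IRF4-overexpressing libraries and 3724, 3510.4 and 3369 CPM in the control libraries, or 3778 ± 564 CPM in IRF4-overexpressing cells and 3535 ± 179 CPM in control cells (SD, n = 3 each). The lowest and the highest sums were both IRF4-overexpressing libraries, so the control range lay inside that of the IRF4-overexpressing libraries.

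The read-through gene NDUFC2-KCTD14 had the smallest p in complex I, with 29.1, 35.6 and 36.7 CPM in the 3 IRF4-overexpressing libraries, against 27.2, 28.3 and 28.0 CPM in the control libraries. All 3 IRF4-overexpressing values lay above all 3 control values (log2 fold change 0.28 (SE 0.11), adjusted p = 0.239). It was the only member of which this held, 1 of 81, beside 13.5% of all tested genes. NDUFC2 itself, an accessory membrane-arm subunit whose exons it shares, had a log2 fold change of 0.22 (adjusted p = 0.361).

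NDUFS6, an accessory subunit near the iron-sulphur cluster chain, pointed down, with 106, 85.7 and 79.4 CPM in the IRF4-overexpressing libraries and 105, 112 and 115 CPM in the controls (log2 fold change -0.29 (SE 0.13), adjusted p = 0.265). Replicate 1 of the IRF4-overexpressing cells lay within the control range, and replicates 2 and 3 lay below it. NDUFS5 and NDUFAB1, which is also the mitochondrial acyl carrier protein, were the most abundant of the complex per kb. NDUFS5 stood at 166, 255 and 245 CPM in the IRF4-overexpressing libraries and 217, 196 and 185 CPM in the controls (log2 fold change 0.15, adjusted p = 0.589). NDUFAB1 stood at 103, 150.3 and 142 CPM in the IRF4-overexpressing libraries and 141, 125 and 118 CPM in the controls (log2 fold change 0.04, adjusted p = 0.888). In both genes IRF4-overexpressing replicate 1 was the lowest of the 6 libraries and replicates 2 and 3 were the highest. NDUFS4, an accessory subunit mutated in Leigh syndrome, varied most within groups, at 16.3, 27.0 and 29.6 CPM in the IRF4-overexpressing libraries and 27.7, 22.5 and 20.0 CPM in the controls (log2 fold change 0.05, adjusted p = 0.902).

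Complex II, succinate dehydrogenase, is the one complex encoded wholly in the nucleus and also an enzyme of the TCA cycle. Its 4 genes did not share a direction: 2 log2 fold changes were positive and 2 negative, and 0 were called. SDHA, the flavoprotein that oxidises succinate, had 139.9, 108 and 101 CPM in the 3 IRF4-overexpressing libraries, against 133, 146 and 151 CPM in the control libraries (log2 fold change -0.30 (SE 0.14), adjusted p = 0.285). SDHC, 1 of the 2 membrane anchors, had 11.4, 9.88 and 10.0 CPM in the 3 IRF4-overexpressing libraries, against 14.3, 12.4 and 14.4 CPM in the control libraries (log2 fold change -0.40 (SE 0.12), adjusted p = 0.147). In SDHC every IRF4-overexpressing library lay below every control library, while in SDHA replicate 1 lay inside the control range.

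SDHB, the iron-sulphur subunit, had 141, 217 and 215 CPM in the 3 IRF4-overexpressing libraries, against 180.4, 169 and 162 CPM in the control libraries (log2 fold change 0.16 (SE 0.17), adjusted p = 0.577). SDHD, the other anchor, had 131, 200.1 and 195 CPM in the 3 IRF4-overexpressing libraries, against 184, 142 and 139 CPM in the control libraries (log2 fold change 0.18 (SE 0.19), adjusted p = 0.580). In both genes IRF4-overexpressing replicate 1 lay below all 3 controls and replicates 2 and 3 lay above them. IRF4-overexpressing replicates 2 and 3 thus had the lowest SDHA values and the highest SDHB and SDHD values of the 6 libraries.

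**Figure D3:**
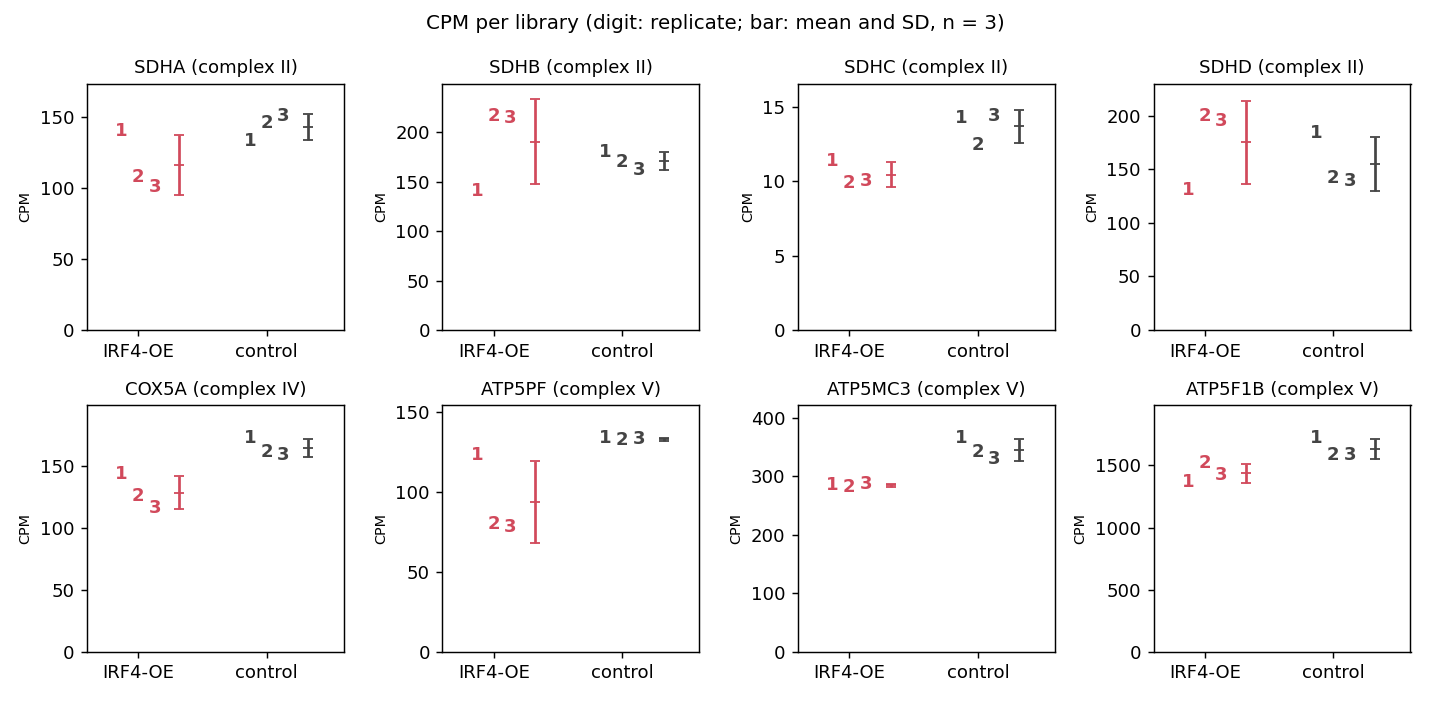
CPM in each library for the 4 complex II genes, COX5A, ATP5PF, ATP5MC3 and ATP5F1B, with IRF4-overexpressing libraries left of control libraries, digits marking the replicate and bars the mean and SD (n = 3). SDHC, COX5A, ATP5PF, ATP5MC3 and ATP5F1B show no overlap between groups. In SDHA, SDHB, SDHD and also ATP5PF, IRF4-overexpressing replicate 1 stands apart from replicates 2 and 3.

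Complex III, which passes electrons from coenzyme Q to cytochrome c, had 0 of 9 members called and a median log2 fold change of 0.16. The sums were 1337, 1876 and 1833 CPM in the IRF4-overexpressing libraries and 1705, 1544 and 1486 CPM in the control libraries. UQCR11, a small subunit, had 100.0, 136 and 134 CPM in the IRF4-overexpressing libraries and 107, 107 and 101 CPM in the controls (log2 fold change 0.23, adjusted p = 0.353). UQCRC1, a large core protein, was the 1 member of the complex with a negative value, at 168, 197 and 192 CPM in the IRF4-overexpressing libraries and 201, 209 and 195 CPM in the controls (log2 fold change -0.12, adjusted p = 0.445). UQCRH had 177, 291 and 295 CPM in the IRF4-overexpressing libraries and 256, 209 and 195 CPM in the controls (log2 fold change 0.21, adjusted p = 0.557), and its near-copy UQCRHL had 88.0, 134 and 132 CPM in the IRF4-overexpressing libraries and 110.3, 101 and 93.6 CPM in the controls (log2 fold change 0.21, adjusted p = 0.469). Both followed the library axis, with IRF4-overexpressing replicate 1 lowest.

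In complex IV, cytochrome c oxidase, 0 of 11 tested members were called and the median log2 fold change was 0.17. The sums were 2034, 2696 and 2633 CPM in the IRF4-overexpressing libraries and 2459, 2258 and 2156 CPM in the control libraries. COX5A, a subunit on the matrix side, had 143, 126 and 116 CPM in the 3 IRF4-overexpressing libraries, against 173, 161 and 159 CPM in the control libraries (log2 fold change -0.36 (SE 0.11), adjusted p = 0.147). The groups did not overlap, and COX5A and COX4I1 were the 2 members of the complex with negative values. COX5B, another matrix-side subunit, had 74.1, 131 and 126 CPM in the IRF4-overexpressing libraries and 97.1, 101 and 85.3 CPM in the controls (log2 fold change 0.23, adjusted p = 0.534). It had the largest gap in the complex between IRF4-overexpressing replicate 1 and replicates 2 and 3, 0.80 on the log2 scale.

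Raji cells carried the ubiquitous rather than the tissue forms of complex IV. COX4I1 stood at 323, 279 and 255 CPM in the IRF4-overexpressing libraries and 290.5, 326 and 321 CPM in the controls (log2 fold change -0.13, adjusted p = 0.499), while its lung form COX4I2 had 0, 0 and 2 counts in IRF4-overexpressing libraries and 0, 0 and 1 in controls. COX6A1 had 159, 227 and 226 CPM in the IRF4-overexpressing libraries and 187, 179.9 and 175 CPM in the controls (log2 fold change 0.17, adjusted p = 0.487), and the heart and muscle form COX6A2 had 0 counts in all 6 libraries. COX6B1 had 113, 162 and 148 CPM in the IRF4-overexpressing libraries and 140.3, 139 and 131 CPM in the controls (log2 fold change 0.05, adjusted p = 0.848), and the testis form COX6B2 had at most 1 count in any library. COX7A2 had 613, 857 and 869 CPM in the IRF4-overexpressing libraries and 775, 666 and 633 CPM in the controls (log2 fold change 0.17, adjusted p = 0.515), and the heart and muscle form COX7A1 had 0 counts in all 6. Each of these ubiquitous forms was well counted, with its tissue form at or near 0. COX7A2L, which takes part in assembling supercomplexes, had 108, 155 and 154 CPM in the IRF4-overexpressing libraries and 137, 119 and 113 CPM in the controls (log2 fold change 0.18, adjusted p = 0.514).

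COX7B had 68.5, 102 and 111 CPM in the IRF4-overexpressing libraries and 86.0, 75.6 and 74.6 CPM in the controls (log2 fold change 0.25, adjusted p = 0.428), and COX7B2, expressed in testis, had 0 counts in all 6. COX8A had 111, 172 and 158 CPM in the IRF4-overexpressing libraries and 142, 137 and 123 CPM in the controls (log2 fold change 0.13, adjusted p = 0.633), and COX8C, also of testis, had 1, 1 and 3 counts in IRF4-overexpressing libraries and 3, 0 and 0 in controls. COX7C had 188, 265 and 257 CPM in the IRF4-overexpressing libraries and 249, 205 and 207 CPM in the controls (log2 fold change 0.10, adjusted p = 0.695). Apart from COX4I1, the tested genes of these families were lowest in IRF4-overexpressing replicate 1 and highest in replicates 2 and 3. The 6 tissue forms are the members that were not tested, and they had at most 3 counts in any library, which is also the upper limit that a count of 0 allows. COXFA4, formerly NDUFA4, is a complex IV subunit outside the rule, and had 139.6, 216 and 218 CPM in the IRF4-overexpressing libraries and 207, 166 and 163 CPM in the controls (log2 fold change 0.10, adjusted p = 0.763). Its paralog COXFA4L2, known from hypoxia, had 2.44, 2.24 and 1.64 CPM in the IRF4-overexpressing libraries and 2.07, 3.27 and 3.31 CPM in the controls (log2 fold change -0.45, adjusted p = 0.327).

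Complex V, ATP synthase, had the most members that pointed down, 10 of 19, and 0 called. Its sums were 4995, 6296 and 6057 CPM in the IRF4-overexpressing libraries and 6348, 5691 and 5601 CPM in the control libraries, or 5782 ± 693 CPM in IRF4-overexpressing cells and 5880.1 ± 408 CPM in control cells (SD, n = 3 each), the 1 complex with a ratio of the means below 1 (0.983). That ratio was 1.05 when CPM used library sizes without TMM, so its direction depends on the scaling.

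ATP5MC3 is 1 of 3 genes that encode the identical mature c subunit of the proton-driven rotor ring. It had 284, 282 and 286 CPM in the 3 IRF4-overexpressing libraries, against 366, 341 and 329 CPM in the control libraries, or 284 ± 2.28 CPM in IRF4-overexpressing cells and 345 ± 18.9 CPM in control cells (SD, n = 3 each). The 3 IRF4-overexpressing libraries were nearly equal, although they lie on both sides of the axis, and all were below the lowest control (log2 fold change -0.28 (SE 0.08), adjusted p = 0.141). DESeq2 called it lower (log2 fold change -0.29, adjusted p = 0.0366). ATP5MC1 had 119, 142 and 128 CPM in the IRF4-overexpressing libraries and 146, 147 and 134 CPM in the controls (log2 fold change -0.14, adjusted p = 0.428), and ATP5MC2 had 107, 115 and 95.5 CPM in the IRF4-overexpressing libraries and 109, 117 and 110.4 CPM in the controls (log2 fold change -0.08, adjusted p = 0.612). ATP5MC3 was the most highly counted of the 3 in every library, and in ATP5MC1 and ATP5MC2 the groups overlapped.

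ATP5F1B had 1368, 1516 and 1426 CPM in the 3 IRF4-overexpressing libraries, against 1725, 1583 and 1587 CPM in the control libraries, or 1437 ± 74.8 CPM in IRF4-overexpressing cells and 1632 ± 80.6 CPM in control cells (SD, n = 3 each). The groups did not overlap, and the difference did not pass the adjusted threshold (log2 fold change -0.18 (SE 0.09), adjusted p = 0.296). ATP5PF, also called factor 6, part of the stalk that holds the catalytic head still, had 123, 79.8 and 77.8 CPM in the 3 IRF4-overexpressing libraries, against 134, 132 and 133 CPM in the control libraries (log2 fold change -0.51 (SE 0.18), adjusted p = 0.207). The control libraries were nearly equal. The low values were those of IRF4-overexpressing replicates 2 and 3, with replicate 1 just below the controls.

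ATP5F1D, the delta subunit of the central stalk, had 56.3, 30.9 and 31.1 CPM in the 3 IRF4-overexpressing libraries, against 39.8, 67.6 and 65.1 CPM in the control libraries (log2 fold change -0.54 (SE 0.30), adjusted p = 0.332). It had the largest spread within groups of any member, and control replicate 1 stood with IRF4-overexpressing replicates 2 and 3 rather than with its own group. ATP5F1E had 207, 335 and 320.0 CPM in the IRF4-overexpressing libraries and 289, 229 and 216 CPM in the controls (log2 fold change 0.23, adjusted p = 0.496). The 2 small stalk subunits thus ran in opposite directions across the same libraries, ATP5F1E being highest where ATP5F1D was lowest.

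Over all complexes, every IRF4-overexpressing library was lower than every control library for 8 of 81 members, or 9.88%, beside 11.9% of all tested genes. They included ATP5MC3, COX5A, SDHC, ATP5PF, ATP5F1B, ATP5PO and ATP5MF. ATP5PO is the stator's OSCP subunit and ATP5MF a membrane subunit, and both are named for this count. The share of members is close to that of all genes, and with the 1 member that was higher in every library it was 11.1% against 25.4%.

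**Figure D4:**
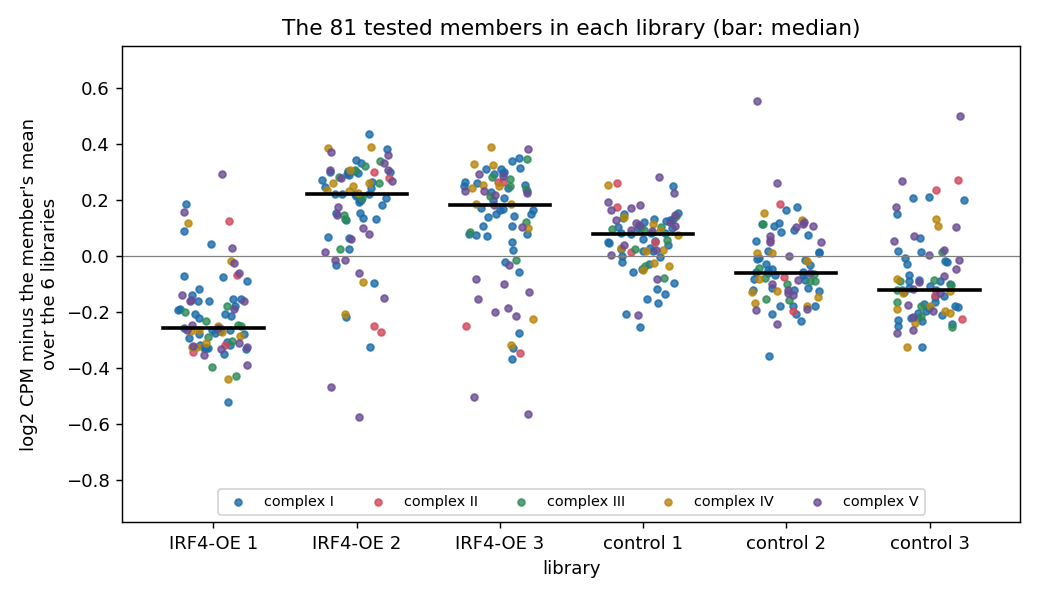
Log2 CPM of each tested member minus that member's mean over the 6 libraries (vertical axis), by library (horizontal axis), coloured by complex, with a bar at the median. The members sit low in IRF4-overexpressing replicate 1 and high in replicates 2 and 3, and the control libraries lie between, control replicate 1 being the highest of them.

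The members differed more between libraries of the same group than between the groups. Summed over all 87 they made 11919, 15567 and 15081 CPM in the IRF4-overexpressing libraries and 14748, 13474 and 13078 CPM in the control libraries, or 14189 ± 1980.5 CPM in IRF4-overexpressing cells and 13766 ± 873 CPM in control cells (SD, n = 3 each). Among IRF4-overexpressing libraries the members' log2 CPM was higher in replicates 2 and 3 than in replicate 1 by a median of 0.44, where the median over all tested genes was 0.02. Among control libraries it was higher in replicate 1 than in replicates 2 and 3 by a median of 0.14, beside 0.00 over all genes. In both groups at once, 58 of 81 members were higher on the first side of the axis (71.6%, beside 38.4% of all tested genes), and 9 were lower (11.1%, beside 36.9%).

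The 9 members that ran the other way included ATP5F1D, NDUFA8, NDUFS6, SDHA, COX4I1, ATP5MC2, ATP5MF and ATP5MF-PTCD1, named for this pattern. The remaining 14 were mixed between the groups, ATP5PF among them. ATP5F1D had first minus second side differences of -0.86 in IRF4-overexpressing and -0.74 in control libraries on the log2 scale. In IRF4-overexpressing and control libraries these differences were 0.60 and 0.39 in SDHD and -0.43 and -0.16 in SDHA. ATP5PF had -0.64 in IRF4-overexpressing and 0.02 in control libraries.

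The pattern was not confined to the respiratory chain. Of 77 mitochondrial ribosomal protein genes 56 were higher on the first side in both groups (72.7%), and of 76 cytosolic ribosomal protein genes 59 (77.6%). Short genes shared it: among all tested genes of under 1000 bases 53.9% were higher on the first side in both groups, and among those of 4000 bases or more 30.1%. The members are short, with a median width of 1145 bases beside 3479 bases for all tested genes, and 38 of 81 are under 1000 bases. First minus second side differences were larger in members than in all genes of like width. In IRF4-overexpressing libraries the members' medians were 0.52 under 1000 bases, 0.43 up to 2000, 0.30 up to 4000 and 0.41 above. All tested genes of these classes had 0.34, 0.22, 0.09 and -0.15. In control libraries members had 0.19, 0.16, 0.05 and 0.16, beside 0.08, 0.03, 0.01 and -0.03. The median log2 fold change between groups also ran with width, at 0.17 for genes under 1000 bases, 0.08 up to 2000, 0.03 up to 4000 and -0.07 above. In those 4 classes the members' medians were 0.16, 0.09, 0.02 and 0.03, the last over only 4 members. With offsets for width in the fit the members' median was -0.00089. GC content was 47.6% in the median member and 47.9% in the median gene. It differed between members by their pattern, with medians of 45.2% in the 58 higher on the first side, 52.0% in the 9 lower and 58.3% in the 14 mixed. What the axis is, and what part width or GC content has in the members' values, was not tested.

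**Figure D5:**
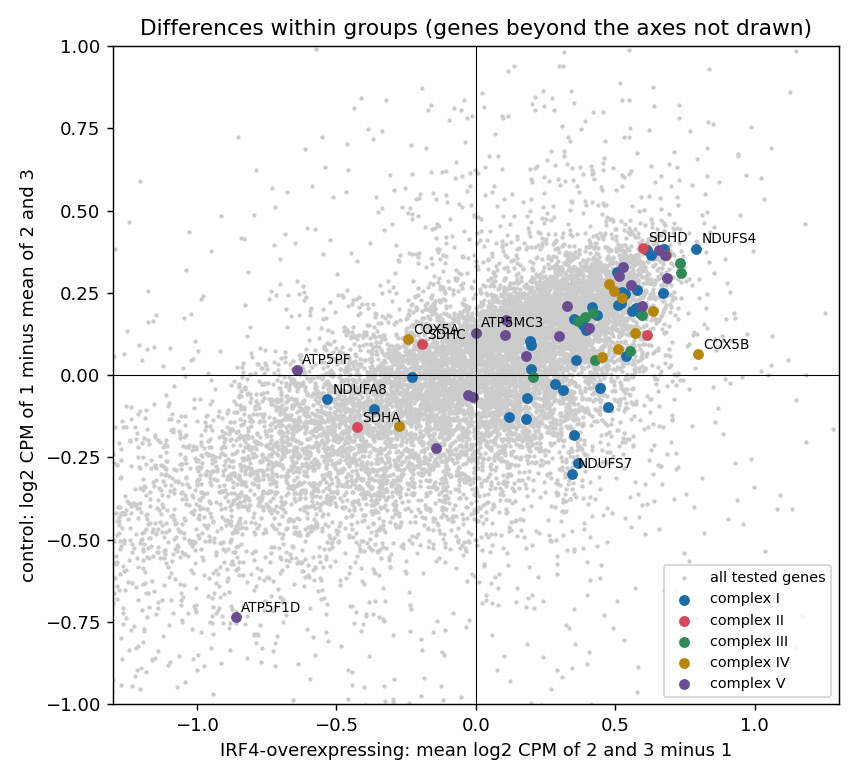
Difference between libraries of 1 group in log2 CPM: IRF4-overexpressing replicates 2 and 3 minus replicate 1 (horizontal axis) and control replicate 1 minus replicates 2 and 3 (vertical axis), members coloured by complex over all tested genes in grey. Most members lie in the upper right, higher on the first side in both groups (58 of 81), with ATP5F1D alone far at the lower left.

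Because 2 of 3 IRF4-overexpressing libraries and 1 of 3 controls lie on the first side, the groups were also compared within each side. Each comparison has a single library in 1 group, which is assumed to vary as the pairs do. Both comparisons came from 1 fit over all libraries. Their p-values rest on the spread within 2 pairs, IRF4-overexpressing replicates 2 and 3 and control replicates 2 and 3. The sides were set from these same libraries, so each pair was put together for being alike on the axis. The spread within pairs is thus likely too small, and the calls within sides too many. These comparisons are given as a description of these libraries. On the first side the axis scores were close, 0.396 and 0.345 in IRF4-overexpressing replicates 2 and 3 and 0.335 in control replicate 1. On the second side they were not, at -0.741 in IRF4-overexpressing replicate 1 and -0.107 and -0.228 in control replicates 2 and 3, so that comparison does not hold the axis constant. On the first side, IRF4-overexpressing replicates 2 and 3 against control replicate 1, 30 members were called higher (beside 18.2% of all genes) and 11 lower (beside 24.8%). On the second side, IRF4-overexpressing replicate 1 against control replicates 2 and 3, 0 were called higher (beside 5.47%) and 10 lower (beside 4.37%). Of 81 members 59 were positive on the first and negative on the second side (72.8%, beside 22.0% of all tested genes), 19 negative on both (23.5%, beside 34.5%) and 3 positive on both (3.70%, beside 29.2%). Members that run with the axis are lower at the more negative score of IRF4-overexpressing replicate 1, so the sign on the second side and the axis cannot be told apart.

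ATP5MC3 and ATP5F1B were called lower on both sides, 2 of 81 members (2.47%), which is near the 2.30% of all tested genes, and 0 members were called higher on both (beside 4.06%). ATP5MC3 had a log2 fold change of -0.37 on the first side and -0.24 on the second. ATP5F1B had -0.23 and -0.21. SDHB and ATP5PB, a stator subunit of complex V, were among the 59 members positive on the first and negative on the second side. SDHB stood at 0.26 on the first side and -0.24 on the second. ATP5PF had a log2 fold change of -0.77 on the first and -0.11 on the second side.

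The side of the axis was also used as a term in a fit over all 6 libraries. That term takes the side and not the score, so it does not hold the axis constant on the second side. The side was also set from these same libraries. In this fit 0 members were called higher (beside 5.87% of all genes) and 2 lower (beside 3.22%). These were ATP5MC3 (log2 fold change -0.30, adjusted p = 0.0287) and ATP5F1D (-0.30, adjusted p = 0.0373). With 1 surrogate variable estimated by sva in place of the side, 0 were higher (beside 11.2%) and 11 lower (beside 17.8%). Without IRF4-overexpressing replicate 1, 39 members were called higher (beside 19.9%) and 10 lower (beside 25.1%), and leaving out any other single library gave 0 calls in either direction. The count of calls thus changed with that 1 library. ATP5MC3 was called lower in every one of these 3 fits, and in 6 of the 19 alternatives run. It was named for its small p in these same libraries, which the fits share, so these calls are not independent of each other.

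The genes around the chain were read the same way. Among regulators of mitochondrial biogenesis 1 of 14 was called, higher: PPARGC1A, the coactivator PGC-1 alpha. It had 35, 29 and 38 counts in IRF4-overexpressing libraries and 5, 1 and 3 counts in controls, or 1.02, 0.783 and 0.787 CPM in the IRF4-overexpressing libraries and 0.124, 0.0372 and 0.0821 CPM in the controls (log2 fold change 3.27 (SE 0.36), adjusted p = 0.00604). It was called at a level of at most 1.02 CPM, and a filter of 1 CPM in 3 libraries leaves it untested. PPARGC1A also missed the threshold with the replicate number as a block, a fit that called 3 of all genes higher. NRF1, a transcription factor of subunit promoters, had 27.4, 24.1 and 22.3 CPM in the IRF4-overexpressing libraries and 33.4, 30.2 and 36.2 CPM in the controls (log2 fold change -0.44, adjusted p = 0.124). All 3 IRF4-overexpressing NRF1 values lay below all 3 control values, as in 11.9% of all tested genes. TFAM, which packages and transcribes mitochondrial DNA, had a log2 fold change of 0.02 (adjusted p = 0.954).

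Of 13 TCA cycle genes 0 were called in either direction, with a median log2 fold change of -0.29, 8 values below 0 (61.5%, beside 49.0% of all tested genes) and 5 lower at an unadjusted p under 0.05 (38.5%, beside 8.18%). IDH3A, the catalytic subunit of NAD-dependent isocitrate dehydrogenase, had 212, 197 and 188 CPM in the IRF4-overexpressing libraries and 282, 249.6 and 260.4 CPM in the controls (log2 fold change -0.41 (SE 0.09), adjusted p = 0.0756). DLD, the dihydrolipoamide dehydrogenase shared by several dehydrogenase complexes, had 350.5, 312 and 328 CPM in the IRF4-overexpressing libraries and 431, 385 and 401 CPM in the controls (log2 fold change -0.30 (SE 0.09), adjusted p = 0.153). Both had no overlap between groups, as in 4 of the 13 genes (30.8%), beside 25.4% of all tested genes.

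Of 52 assembly factors of the complexes 0 were called, with a median of 0.07. HIGD2A, a complex IV and supercomplex assembly factor, had 49.4, 43.3 and 44.1 CPM in the IRF4-overexpressing libraries and 54.8, 60.4 and 59.0 CPM in the controls (log2 fold change -0.35 (SE 0.09), adjusted p = 0.119), and COX20, which helps mature a mitochondrially encoded complex IV subunit, had 35.3, 28.2 and 30.4 CPM in the IRF4-overexpressing libraries and 44.3, 38.1 and 40.8 CPM in the controls (log2 fold change -0.39 (SE 0.12), adjusted p = 0.153). Of 11 coenzyme Q synthesis genes 0 were called, with a median of 0.07. The smallest p there was that of COQ8A, an atypical kinase of the pathway, at 40.7, 46.4 and 47.3 CPM in the IRF4-overexpressing libraries and 32.1, 37.6 and 32.6 CPM in the controls (log2 fold change 0.40, adjusted p = 0.127), followed by the methyltransferase COQ3 (log2 fold change -0.31, adjusted p = 0.223). The medians over mitochondrial and cytosolic ribosomal protein genes were 0.06 and 0.15, with 0 called in either list.

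Subunits outside the rule were CYC1, the cytochrome of complex III, at a log2 fold change of 0.21 (adjusted p = 0.409), the electron carrier cytochrome c (CYCS) at -0.02 (adjusted p = 0.952), the ATP synthase inhibitor ATP5IF1 at -0.10 (adjusted p = 0.494) and DMAC2L, which is associated with ATP synthase, at -0.06 (adjusted p = 0.761). The mitochondrially encoded subunits were not analysed here.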

How the data were processed

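RNA of 6 Raji samples was sequenced with a stranded, poly(A)-based kit, per the labels' protocols. The authors deposited 1 table of raw counts per gene under Entrez identifiers, with a column of gene width in bases. The control columns are called WT there, while per the labels the control received empty vector. The submitters' processing notes name the genome builds mm9 and hg19. The aligner, counting tool, annotation and the use of strand are not given in the sources used here, so reads of overlapping or near-identical genes could have been split in ways that cannot be checked. Of 23459 rows, 23308 matched a RefSeq symbol, and the other 151 held 0.122% of the deposited counts. No 2 libraries held the same counts.

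Counts were compared with edgeR 4.0.16 (R 4.3.3): TMM scaling, filterByExpr, group as the sole term, and a quasi-likelihood F-test, two-sided, over 12079 genes, called at a Benjamini-Hochberg adjusted p under 0.05. The SE was the log2 fold change divided by the square root of F, and 95% intervals used the fit's degrees of freedom. Counts of 0 allow up to 3 counts, counting error only. Differences between libraries used log2(CPM + 0.1). Alternatives were DESeq2 1.42.0, limma-voom 3.58.1, sva 3.50.0, other scalings and filters, width offsets and a replicate block. Others were single libraries left out, the side of the library axis as a term, and comparisons within each side. The tests were tried first on simulated counts.

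The members, the other gene lists and the naming rule were chosen with earlier results of these data known. The rule named, per complex, the 2 members with the smallest p, the 2 highest per kb and the one most variable within groups, plus the paralog families and from each other list the 2 genes of smallest p. Members named otherwise were chosen after their values were seen. A single member enters all counts and medians but is not reported here by itself.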

Additional observations from a re-analysis of the deposited data

How the results depend on the processing

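Of the alternatives tried, the member counts of 0 higher and 0 lower were the same without a filter, with 1 CPM required in 3 libraries, with median-ratio scaling, with library sizes alone, with limma-voom, with IRF4 left out and with width offsets. The count of lower members was 1 with DESeq2, 2 with the side of the library axis as a term and 11 with 1 surrogate variable. Calls also differed within each side of the axis, as given above. With single libraries left out, the count of higher members ranged from 0 to 39 and that of lower members from 0 to 10, the upper ends being without IRF4-overexpressing replicate 1. The median log2 fold change of members was 0.02 to 0.24 over the single libraries left out, -0.15 within the second side and -0.047 with 1 surrogate variable. SDHB (-0.24) and NDUFAB1 (-0.25) turned lower and called within the second side. Of 30 named and tested members, 17 had the other sign within the second side, 10 with 1 surrogate variable, 7 with width offsets, 6 with the axis term and at most 3 under any other alternative. PPARGC1A missed the threshold under the replicate block (log2 fold change 3.32, adjusted p = 0.0917), was not tested where 1 CPM was required, and passed in the other alternatives run. The cause was not tested for any of these.

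Same-numbered libraries of the 2 groups deviated in opposite directions (correlations of -0.65, -0.22 and -0.47 over genes for numbers 1, 2 and 3). The axis held most of the variance within groups, so a pairing beneath it could not be seen this way. Whether the numbers pair the samples is thus not settled. With the replicate block 0 members were called higher and 0 lower, and the median was 0.10. Depth limits the 6 tissue forms, which had at most 3 counts in any library.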
